A study of Canis lupus familiaris with 24 samples.

Results

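The comparison described here sets untreated MDCK-NBL2 cells after 4 days in culture against the same line, also untreated, at day 0. Its members are the 6 libraries whose labels give that line, no treatment and one of these times, 3 at day 4 and 3 at day 0, out of 24 libraries in the series. MDCK cells are an established epithelial cell line from dog kidney, and MDCK-NBL2 is 1 of the 2 sublines that were sequenced. The other 18 libraries hold MDCK-II cells and MDCK-NBL2 cells treated with the growth factor TGFb, with or without siRNA. Neither group here received TGFb or siRNA, and the labels call both epithelial. The sources used here do not give cell density, medium or the event that starts the count of days. Replicates carry numbers in the labels, with no word on separate cultures. A p-value here thus reflects library-to-library spread, pooled over all groups of the series, that may be technical. Strand-specific mRNA sequencing gave 12744114, 27066739 and 6783222 counts for day 0 replicates 1, 2 and 3, and 23702871, 27567296 and 8021850 for day 4. Levels are counts per 1000000 (CPM), corrected for library composition, and values are listed in the order of replicates 1, 2 and 3. In bulk RNA, fewer cells of a type and less RNA per cell cannot be told apart.

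MDCK cells divide while they are sparse. Once they touch they stop dividing, tighten their junctions, polarize and grow a primary cilium, an antenna-like organelle built when cells leave the cell cycle. Cells kept in one dish also use up nutrients and serum factors, and the pathways that read such shortage are well known: ATF4 for amino acid and endoplasmic reticulum stress, FOXO factors for low insulin signalling, and SREBP for low sterol supply. Interferon genes answer viral or cellular nucleic acid, and NRF2 target genes answer oxidants.

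General epithelial markers were present in all 6 libraries, while kidney markers were unequal. The adhesion gene CDH1 measured 1015, 1279 and 1119 CPM at day 0 and 1776, 1158 and 1096 CPM at day 4, and EPCAM lay between 370.1 and 664 CPM in the 6 libraries. The claudin CLDN3 lay between 20.1 and 74.5 CPM. The kidney transcription factor PAX8 lay between 102 and 348 CPM. The kidney cadherin CDH16 stood at 3.09 CPM in day 4 replicate 1 and at or near 0, up to 0.229 CPM, in the other 5. PAX2 was low, between 3.29 and 6.42 CPM, while the keratin symbols KRT8 and KRT18 were not found in the table used here. Of 12 fibroblast markers, THY1, FAP, DPT, TCF21 and MFAP5 had no count in any of the 6 libraries. Their summed level ran from 1.03 to 7.97 CPM at day 0 and was 29.3, 609 and 2.75 CPM at day 4. COL1A1, a gene that epithelial cells can also switch on, made up 596 CPM of the 609 CPM. PDGFRA, also on that list, made up 29.2 CPM of the 29.3 CPM in day 4 replicate 1. It measured 1.18, 0.926 and 1.89 CPM at day 0 and 12.8 and 2.52 CPM in day 4 replicates 2 and 3. The leukocyte markers CD3E, MS4A1, ITGAX, TYROBP and SPI1 and the endothelial markers PECAM1, ERG and EMCN were likewise at 0. The only members of these 2 lists above 10 CPM were CD74 and FLT1. The endothelial marker FLT1 measured 216, 177 and 209 CPM at day 0 and 145, 204 and 102 CPM at day 4. VWF, another endothelial marker, was scarce and rose from 0.346, 0.397 and 0.808 to 5.24, 1.92 and 0.688 CPM in overlapping groups. CD74, which epithelial cells can also make, followed no group, at 94.2 to 215 CPM at day 0 and 71.6 to 249.8 CPM at day 4.

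The 6 libraries were not alike within their groups. Day 4 replicate 2 carried part of the profile of TGFb-treated cells. Over 34 genes that were high in all 3 TGFb-treated MDCK-NBL2 libraries, its median level was 15.7% of the treated mean. These genes were chosen to be at most 5% of that mean in day 4 replicates 1 and 3 and day 0 replicates 2 and 3. The medians of those libraries, 0.289% to 0.658%, were thus low by selection. Day 0 replicate 1 carried transcripts of MDCK-II: over 44 genes of that line its median level was 9.55% of the MDCK-II mean. These genes were chosen to be at most 5% of that mean in every other MDCK-NBL2 library. The medians of the other 5 libraries, 0.713% at most, were thus low by selection. Day 0 replicate 1 had a level of 2.22% for the 34 TGFb genes. Day 4 replicate 1 had 28 genes at least 4-fold above all other 5 libraries, and day 4 replicate 2 had 78 above and 91 below. Day 4 replicate 3 had none above and 2 below, and lay closer to day 0 than to its own group. Over all tested genes its root mean square log2 difference was 0.77, 0.51 and 0.58 from day 0 replicates 1, 2 and 3. From day 4 replicates 1 and 2 it was 0.83 and 1.17. The median gene had a within-group log2 SD of 0.40 at day 4 and 0.16 at day 0, against 0.12 to 0.23 in other groups. What set these libraries apart was not tested. Whether libraries or cultures were mixed or mislabelled, day 4 replicate 3 included, was not tested either, and the labels were used as given.

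With all libraries, 1550 of 12466 tested genes (12.4%) rose from day 0 to day 4 and 656 (5.26%) fell, by edgeR's quasi-likelihood test with Benjamini-Hochberg adjusted p under 0.05. The counts were 1191 (9.47%) and 641 (5.1%) without day 4 replicate 2, and 951 (7.56%) and 314 (2.5%) without day 0 replicate 1. With neither of these doubted libraries they were 690 (5.5%) and 298 (2.37%), or 988 in all (7.87%). A core of 461 rises (3.7%) and 105 falls (0.842%) was called in all 4 of these fits, 566 genes in all (4.54%). All 3 day 4 libraries lay above all 3 day 0 libraries for 1512 genes (12.1%) and below them for 1112 (8.92%). The calls depend on the spread shared with the other 6 groups of the series, which all spread less than the day 4 group. The SE and adjusted p-values given here can thus be too small. Fitted on these 6 libraries alone, edgeR called no gene, with 1614 of 11966 genes at an unadjusted p under 0.05. In the fit to all libraries the DESeq2 Wald test called 2707 genes and limma with voom quality weights 1844. Leaving out day 4 replicate 3 raised the edgeR count to 5324, with 3038 rises and 2286 falls among 12760 genes. Leaving out day 0 replicate 2, day 0 replicate 3 or day 4 replicate 1 lowered it to 729, 1130 and 1023. With each of the 6 libraries left out in turn, 366 rises and 86 falls were called every time, 452 genes in all. The genes below were read against this background in gene lists that stand for pathways and cell functions.

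**Figure D1:**
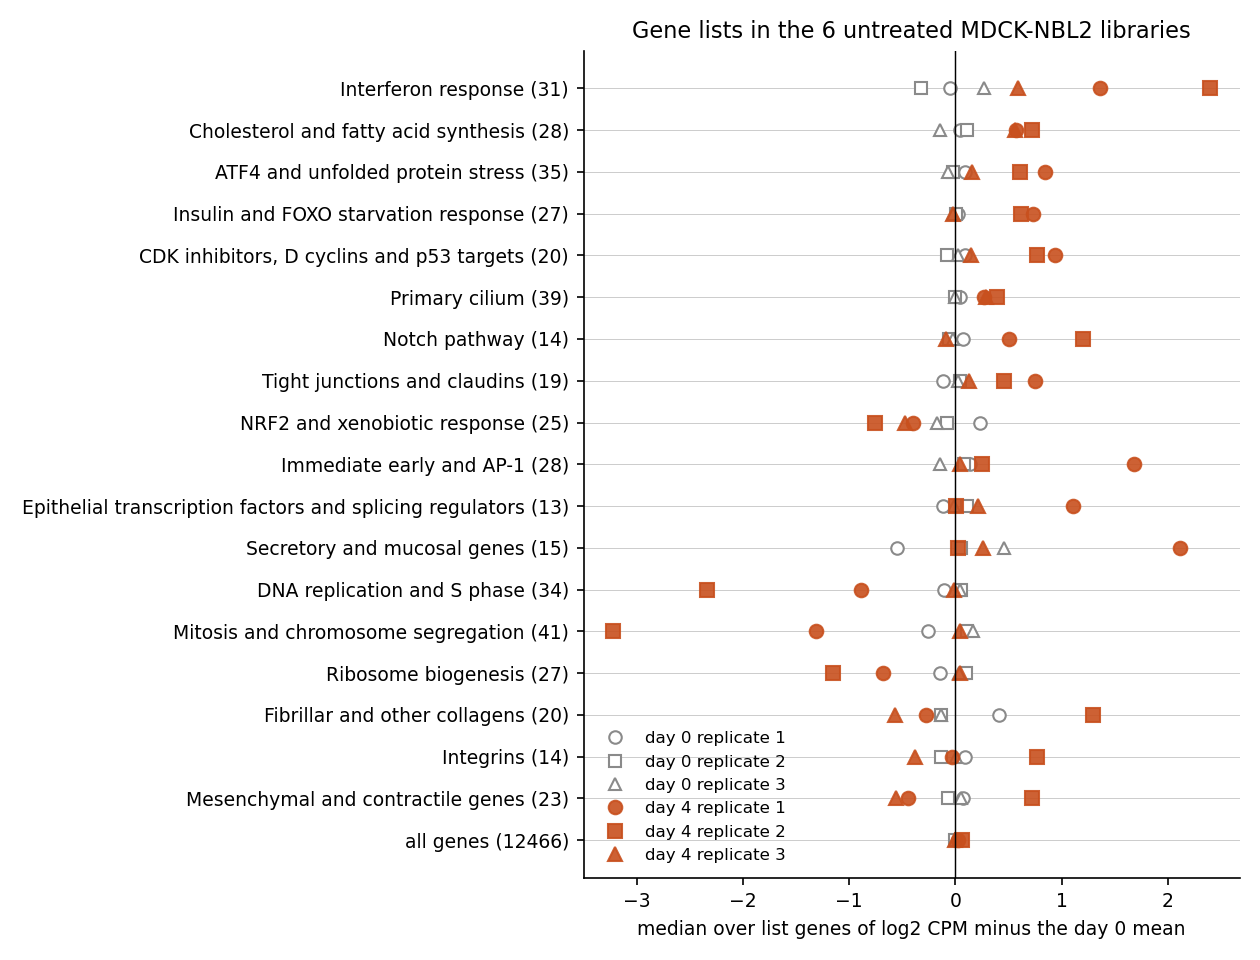
Median, over the tested genes of each list (number in brackets), of each library's log2 CPM minus the mean of the 3 day 0 libraries; open grey symbols are day 0 and filled orange symbols day 4, with circle, square and triangle for replicates 1, 2 and 3. Interferon, sterol and cilium genes lie above day 0 in all 3 day 4 libraries, cell cycle genes fall to -3.22 in replicate 2 and stay at day 0 level in replicate 3, and matrix lists lie above day 0 only in replicate 2.

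With all libraries, interferon response genes had the largest median change of the 36 lists. Of 31 tested members 19 rose and none fell, with a median log2 fold change of 1.93 against 0.06 over all genes. Without day 4 replicate 2 their median was 1.39, below the 1.48 of secretory genes. The median of 4 fibroblast markers was then larger in size, at -3.49, but 1 of them was called as a rise and none as a fall. With only the groups compared, 1 fibroblast marker passed the filter on low counts. All 3 day 4 libraries lay above all 3 day 0 libraries for 19 members of the interferon list. The order of the day 4 libraries was replicate 2, then 1, then 3, with median differences from day 0 of 2.40, 1.36 and 0.59. ISG15, a ubiquitin-like protein conjugated to other proteins, measured 4.50, 3.54 and 12.3 CPM at day 0 and 97.4, 362 and 77.3 CPM at day 4. These groups were far apart, with a log2 fold change of 4.84 ± 0.78 (SE) and an adjusted p of 0.00267. IFI44L, another gene switched on by interferon, went from 1.73, 1.42 and 5.12 to 34.5, 105 and 20.9 CPM (4.49 ± 0.73, adjusted p = 0.00267). RTP4, a chaperone of membrane receptors that interferon also induces though it is not on the list, went from 0.485, 0.331 and 2.56 to 10.1, 26.8 and 10.2 CPM. Both genes were higher in every day 4 library, and day 0 replicate 3 was the highest of its group for each.

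The effector genes of the response followed. MX1 and MX2 encode GTPases that trap viral components. MX1 measured 6.37, 5.98 and 18.3 CPM at day 0 and 174, 221 and 68.4 CPM at day 4, a log2 fold change of 4.00 ± 0.92. MX2 measured 2.01, 2.71 and 7.95 CPM and then 22.4, 175 and 28.9 CPM, a change of 4.30 ± 0.89. These are paralogs, and how reads shared by them were divided is not stated in these sources. DHX58, a helicase of RNA sensing that is not on the list either, rose by 4.07 ± 0.78. BST2, which tethers budding virus, went from 3.12, 3.60 and 14.9 to 49.5, 172 and 20.2 CPM (3.62 ± 0.89). PARP14, PARP9 and DTX3L, which act in ADP-ribosylation, had the smallest adjusted p-values of the list. PARP14 went from 9.91, 6.15 and 9.97 to 48.9, 92.0 and 30.9 CPM (2.76 ± 0.39, adjusted p = 0.00188). DTX3L and PARP9 rose by 2.30 ± 0.35 and 2.81 ± 0.45, and the day 4 values of both cleared day 0 in each library. The list had 15 rises and 1 fall without day 4 replicate 2 and 12 rises without both doubted libraries. With each of the 6 libraries left out in turn, 14 of the 31 members stayed called, against 452 of the 12466 genes tested with all libraries. MX1 and MX2 lost their call without both doubted libraries (adjusted p = 0.0622 and 0.0772), and BST2 lost it without either of them (0.0519 and 0.0509). Leaving out day 0 replicate 2 also ended the calls of MX1 and BST2.

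Many genes of cholesterol and fatty acid synthesis rose. Of 28 tested members 19 rose and none fell, and 22 had all 3 day 4 libraries above all 3 day 0 libraries. The median differences from day 0 were 0.57, 0.72 and 0.56 in the 3 day 4 libraries, so replicate 3 took part here. SQLE, which makes squalene epoxide, measured 258, 269 and 217 CPM at day 0 and 484, 632 and 493 CPM at day 4 (1.11 ± 0.17, adjusted p = 0.00205). INSIG1, the sterol sensor that holds SREBP back, moved more, from 65.9, 62.1 and 40.9 to 282, 204 and 129 CPM (1.86 ± 0.33). FDFT1, squalene synthase, went from 71.6, 72.5 and 59.1 to 122, 109 and 144 CPM. These 3 genes are among 8 members that kept their call with each library left out in turn. The list had 13 rises without day 4 replicate 2, 12 without day 0 replicate 1 and 9 without both.

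The ATF4 and unfolded protein list held both rises and falls. Of 35 members 16 rose and 4 fell, with a median of 0.55. The rises included amino acid and stress genes known as targets of ATF4. CHAC1, which degrades glutathione, measured 9.56, 4.93 and 2.15 CPM at day 0 and 59.1, 37.6 and 18.8 CPM at day 4 (2.76 ± 0.47, adjusted p = 0.00284). DDIT4, an inhibitor of the mTORC1 growth pathway, went from 12.7, 6.45 and 4.58 to 183, 194 and 28.1 CPM (4.07 ± 0.74). SESN2, a leucine sensor of the same pathway counted on another list, went from 11.8, 8.60 and 6.87 to 65.0, 31.3 and 18.8 CPM (2.07 ± 0.31). For these genes replicate 3 was the lowest of the day 4 libraries yet above every day 0 library. HERPUD1, a part of the machinery that clears misfolded proteins, rose by 1.64 ± 0.28. ATF3, a stress transcription factor counted with the immediate early genes, measured 22.6, 12.3 and 13.2 CPM and then 268, 150.2 and 13.8 CPM, and FGF21, a secreted stress hormone, 3.60, 1.12 and 0.269 CPM and then 38.6, 40.5 and 2.29 CPM. Both passed the test (3.17 ± 0.62 and 3.97 ± 0.89), but their groups overlapped because replicate 3 stayed at day 0 level.

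The 4 falls on that list were CRELD2, CALR, HSP90B1 and SDF2L1, known as folding factors of the endoplasmic reticulum. CRELD2, a protein that assists folding there, fell from 65.0, 67.6 and 77.2 to 20.4, 35.9 and 34.9 CPM in non-overlapping groups (-1.21 ± 0.19, adjusted p = 0.00235). CALR, the chaperone calreticulin, measured 876, 733 and 1176 CPM at day 0 and 389, 866 and 565 CPM at day 4 (-0.61 ± 0.21, adjusted p = 0.0461), and it was not called without day 0 replicate 1, day 0 replicate 3, day 4 replicate 1 or day 4 replicate 3. In all 4 fits 13 members rose and 1 fell. With no filter on low counts 16 rose and 1 fell. When day 4 replicate 1 was left out, 9 rose and 1 fell.

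Genes that answer low insulin or nutrient supply rose on balance, 13 of 27 up and 2 down, median 0.75. This came from replicates 1 and 2, with median differences of 0.73 and 0.62, while replicate 3 stood at -0.03. KLHL24, a ubiquitin ligase adaptor, went from 4.85, 3.54 and 3.37 to 40.9, 59.1 and 10.3 CPM (3.24 ± 0.51, adjusted p = 0.00248). YPEL3, a growth-suppressing protein, went from 12.5, 12 and 9.83 to 44.3, 48.9 and 17 CPM (1.69 ± 0.28). Both were above day 0 in each library, least in replicate 3. INSR, the insulin receptor, was scarce at day 0 (0.416, 0.198 and 0.269 CPM) and reached 7.92, 4.92 and 0.688 CPM at day 4 (4.01 ± 0.69). YPEL5, a relative of YPEL3, rose by 1.93 ± 0.37 with overlapping groups, because replicate 3 at 17 CPM lay within day 0. ARRDC4, an arrestin-like gene that tracks glucose supply, fell from 16.2, 18.4 and 18.6 to 3.45, 4.77 and 9.98 CPM (-1.61 ± 0.37, adjusted p = 0.00936).

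Among 20 CDK inhibitors, D cyclins and p53 targets, 10 rose and 1 fell with all libraries, and 8 rose in all 4 fits. CDKN1B, the inhibitor p27, measured 31.0, 33.3 and 42.4 CPM at day 0 and 73.8, 98.2 and 46.9 CPM at day 4 (1.05 ± 0.19, adjusted p = 0.00378). The p53 targets TP53INP1 and CCNG1 rose as well, TP53INP1 from 1.32, 1.06 and 0.269 to 16.0, 11.9 and 3.1 CPM and CCNG1 from 132, 94.4 and 101 to 210.4, 176 and 173 CPM. Their log2 fold changes were 3.44 ± 0.60 and 0.77 ± 0.16, and every day 4 library was above every day 0 library. BTG2, an antiproliferative gene, stood at 41.1, 8.17 and 4.36 CPM at day 4 against 4.64, 3.11 and 3.50, and without day 4 replicate 1 or day 0 replicate 2 it was not called.

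Primary cilium genes had a median slightly above day 0 in all 3 day 4 libraries. Of 39 tested members 10 rose and none fell, 16 had non-overlapping groups with day 4 above, and none lay below. The median differences were 0.27, 0.40 and 0.29. IFT81, a subunit of the particles that carry cargo along the cilium, went from 4.71, 4.93 and 4.71 to 12, 12.5 and 9.87 CPM (1.26 ± 0.23, adjusted p = 0.00381). BBS2 and BBS7, subunits of the complex that sorts ciliary membrane proteins, rose by 0.84 ± 0.17 and 0.72 ± 0.14. BBS7 was low but steady, at 8.59, 7.04 and 6.33 CPM and then 12.7, 13.3 and 10.1. ARL3, a small GTPase of ciliary transport, rose by 1.11 ± 0.21. These 4 genes kept their call with each library left out in turn.

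Notch pathway genes rose in 6 of 14 cases with no fall. The receptor NOTCH1 measured 164, 159 and 145 CPM at day 0 and 450.1, 454 and 208 CPM at day 4 (1.25 ± 0.22, adjusted p = 0.00317). NOTCH3 was low at day 0 and went from 3.39, 2.68 and 4.44 to 63.2, 101 and 15.6 CPM (4.17 ± 0.84). Each day 4 library exceeded day 0 for both receptors, replicate 3 least. The target repressors HEY1 and HES4 rose by 2.16 ± 0.48 and 1.49 ± 0.35, with HEY1 at 1.5, 5.66 and 1.03 CPM at day 4 and thus highest in replicate 2. NRARP, a feedback inhibitor, rose by 1.61 ± 0.42, and its adjusted p was 0.066 without day 0 replicate 1. On the Wnt list 3 of 24 rose, a share near the 12.4% of all tested genes, among them the receptor FZD4 (3.05, 1.92 and 2.56 to 6.66, 8.84 and 3.44 CPM) and the ligand WNT10A (0.693, 0.397 and 0.539 to 4.47, 2.00 and 1.49 CPM). Neither these 2 genes nor HEY1 were called without day 0 replicate 2, and WNT10A also not without day 4 replicate 1.

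Of 19 tight junction genes 7 rose and none fell. Without both doubted libraries 1 member of the list was called. OCLN, occludin, went from 79.0, 88.8 and 90.1 to 145, 134 and 96.5 CPM (0.55 ± 0.14, adjusted p = 0.0135). CGNL1, a linker of junctions to the cytoskeleton, stood at 48.4, 11.7 and 5.28 CPM at day 4 against 1.39, 1.52 and 5.79, a rise of 3.13 ± 0.68 that was not called without day 4 replicate 1. CLDN4 and CGN rose by 1.11 ± 0.28 and 0.80 ± 0.26 in overlapping groups. OCLN, CLDN4 and CGN were not called without day 0 replicate 1. OCLN and CGN also failed without day 4 replicate 1, CLDN4 without day 4 replicate 2, and CGN without day 0 replicate 2 or 3. Among 23 adherens junction and desmosome genes, 5 rose and 2 fell. CDH3, P-cadherin, rose from 113, 140.3 and 136 to 222, 248 and 169 CPM (0.72 ± 0.13) while DSG2, a desmosomal cadherin, fell from 606, 565 and 530.2 to 362, 385 and 402 (-0.57 ± 0.10, adjusted p = 0.00284). NECTIN2, an adhesion receptor, rose by 1.05 ± 0.25, but not without day 4 replicate 2 (adjusted p = 0.0593). CDH1 itself gave 0.24 ± 0.16 with an adjusted p of 0.283, and its groups overlapped.

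With all libraries, the NRF2 and xenobiotic list held more falls than any other list. Of 25 members 10 fell and 1 rose, 11 had all day 4 libraries below all day 0 libraries, and the median was -0.42. NQO1, a quinone reductase, measured 1273, 965 and 939 CPM at day 0 and 242, 140.4 and 411 CPM at day 4 (-2.00 ± 0.39, adjusted p = 0.00473). HMOX1, heme oxygenase, went from 164, 88.1 and 60.1 to 27.4, 28.8 and 25.8 CPM (-1.93 ± 0.40). GCLM, a subunit of the enzyme that starts glutathione synthesis, went from 49.5, 43.6 and 47.7 to 14.4, 19.0 and 24.2 CPM (-1.3 ± 0.21). In these 3 genes the groups were apart, and they fell in all 4 fits. CYP1A1, the classical target of the aryl hydrocarbon receptor, had the steepest fall, from 690.1, 219.5 and 110.0 to 13.1, 9.91 and 34.2 CPM (-4.20 ± 0.98, adjusted p = 0.0102). Its day 0 values themselves spread widely, with replicate 1 the highest, and without both doubted libraries its adjusted p was 0.0894. PIR, a nuclear iron-binding protein that is not on the list, went from 364, 251 and 153 to 27.5, 34.5 and 107 CPM (-2.20 ± 0.46), with 0.0603 without both. The list had 8 falls without day 4 replicate 2 and 4 without both doubted libraries, when the mesenchymal list had 12 and 8. It had 13 without day 4 replicate 3, when 2286 of all 12760 tested genes fell, fewer than the cell division lists described next had.

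The other steep falls were of single genes. IL1RL1, the receptor for interleukin 33, measured 44.6, 47.9 and 84.7 CPM at day 0 and 6.13, 1.04 and 2.29 CPM at day 4. Its log2 fold change of -4.18 ± 0.61 (adjusted p = 0.00205) was called in every fit with a library left out. HAVCR1, known as a marker of kidney tubule injury, fell from 52.5, 13.7 and 24.5 to 5.00, 11 and 5.85 CPM (-2.03 ± 0.41), and day 0 replicate 1 was the highest of its group. RPL22L1, a ribosomal protein paralog, fell from 18, 21.4 and 28.4 to 4.43, 5.66 and 13.8 CPM (-1.56 ± 0.32). SLC6A17, an amino acid transporter, stood at 43.8 CPM in day 0 replicate 1 and at 9.56 CPM or less in the other 5 untreated MDCK-NBL2 libraries, and without that library gave -0.66 ± 0.58 (adjusted p = 0.433).

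**Figure D2:**
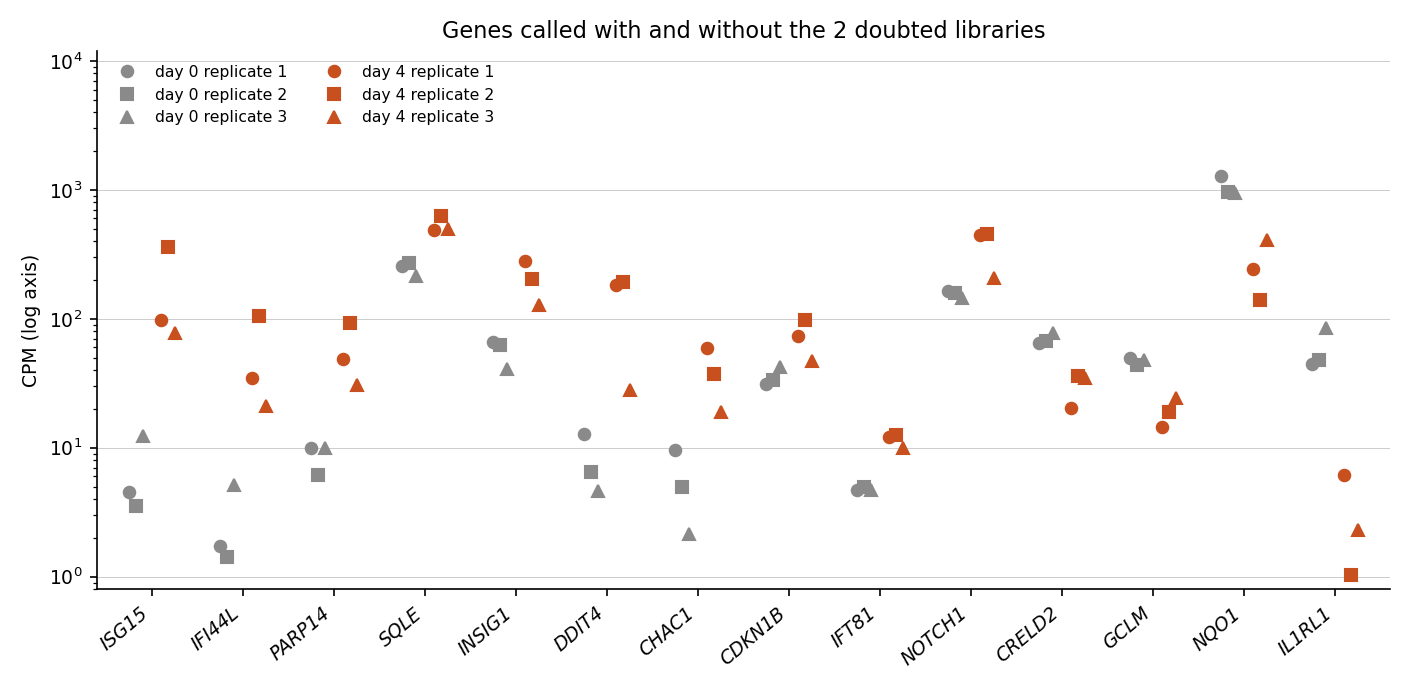
CPM on a log axis for 14 genes called with all libraries and without each or both doubted libraries; grey symbols are day 0, orange symbols day 4, and circle, square and triangle are replicates 1, 2 and 3. The groups do not overlap for any of the 14, and IL1RL1 falls from at least 44.6 CPM to at most 6.13 CPM.

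Genes of cell division were far below day 0 in 2 day 4 libraries and at day 0 level in the third. For 41 mitosis genes the median differences from day 0 were -1.31, -3.22 and 0.04, and for 34 DNA replication genes -0.89, -2.34 and -0.01. All 41 mitosis genes lay below day 0 in replicate 1 and again in replicate 2. MKI67, the common marker of dividing cells, shows the pattern, with 393, 513 and 529 CPM at day 0 and 161, 35.3 and 435 CPM at day 4. Replicate 3 thus lay within day 0, and the test gave -1.19 ± 0.61 with an adjusted p of 0.166. With all libraries 5 mitosis genes and 4 replication genes fell. These counts were 41 and 29 without day 4 replicate 3, when 2286 of all 12760 tested genes fell. Leaving out any other library left at most 3 falls on the mitosis list and 1 on the replication list.

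A few division genes passed with all libraries, and of the 3 given here UBE2C and CCNF lay below day 0 in replicate 3 too. UBE2C, an enzyme that marks mitotic proteins for degradation, measured 65.3, 105 and 106 CPM at day 0 and 23.1, 11.3 and 63.8 CPM at day 4 (-1.52 ± 0.40, adjusted p = 0.0169). AURKB, a mitotic kinase, gave 53.3, 86.2 and 97.0 CPM and then 20.2, 7.28 and 55.9 CPM (-1.54 ± 0.44), and CCNF, a cyclin that directs protein degradation and is not on the list, 97.7, 122 and 124 CPM and then 23.2, 6.62 and 67.2 CPM (-1.86 ± 0.52). These 3 were not called without day 0 replicate 2, day 0 replicate 3 or day 4 replicate 1. INCENP, a partner of AURKB, and KIF2C, a microtubule motor protein, fell by 0.64 and 1.06 on the log2 scale. With 1 library left out, INCENP was called in 2 and KIF2C in 1 of the 6 fits. On the replication list FEN1, RFC5, CHAF1B and TYMS fell, each by between 0.72 and 0.97. TYMS, which makes thymidylate, stood at 165, 189 and 188 CPM at day 0 and at 84.4, 34.7 and 165 CPM at day 4. Ribosome biogenesis genes went the same way, with medians of -0.68, -1.15 and 0.04 and 6 falls among 27 genes. NOP14 and POLR1B, which act in ribosomal RNA processing and synthesis, fell by 0.63 and 0.78. Without day 4 replicate 3, 24 of the 27 fell, against 2286 of all 12760 tested genes. On this list the count of falls was 4 without day 0 replicate 1 and 0 without any one of the other 4 libraries.

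Other gene groups were high in day 4 replicate 1 above all. The immediate early genes, which cells switch on within minutes of a stimulus, were very high there. FOS measured 18.1, 20.3 and 20.7 CPM at day 0 and 2650.2, 36.3 and 70.0 CPM at day 4, and FOSB 3.67, 2.98 and 2.42 CPM and then 770.1, 4.44 and 4.59 CPM. EGR1 reached 1687 CPM and the nuclear receptor NR4A1 272 CPM in replicate 1, against at most 43.7 and 3.56 CPM in the other day 4 libraries. Of 28 immediate early and AP-1 genes 10 rose and 1 fell with all libraries, and 4 rose without day 4 replicate 1. Without that library FOS and FOSB were not called, and the log2 fold change of EGR1 was -0.19 and that of NR4A1 was -0.52. FOSB and NR4A1 were also not called without day 0 replicate 2, nor EGR1 without any one of the day 0 libraries. DUSP1, a phosphatase of the kinase pathway upstream, and the AP-1 members JUND and JUNB kept their call with each library left out. DUSP1 went from 18.3, 16.3 and 17 to 405, 81.8 and 19.5 CPM (3.30 ± 0.68), JUND from 103, 104 and 78.2 to 391, 238 and 113 and JUNB from 84.2, 99.5 and 86.9 to 344, 275 and 102. FOSL1, another AP-1 member, fell from 45.0, 38.0 and 25.3 to 11.7, 5.55 and 10.9 CPM (-1.96 ± 0.59, adjusted p = 0.0306), a call that ended without either replicate 1 or either replicate 2.

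Epithelial and secretory regulators were also highest in day 4 replicate 1. For 13 epithelial transcription factors and splicing regulators the medians were 1.11, 0.00 and 0.22, and for 15 secretory genes 2.12, 0.03 and 0.26. KLF5 measured 290.1, 342 and 309 CPM at day 0 and 945, 193 and 405 CPM at day 4, ELF3 69.6, 99.8 and 81.2 CPM and then 322, 63.1 and 96.1 CPM. OVOL1, which holds the epithelial program, gave 8.85, 0.850 and 3.79 CPM at day 4, and GRHL2, which does so too, 125, 53.1 and 82.0 CPM. In these 4 genes replicate 2 was the lowest at day 4. None of them was called with all libraries, while without day 4 replicate 2 KLF5 rose by 1.11 ± 0.26 and ELF3 by 1.33 ± 0.36. The serine protease TMPRSS2 stood at 44.4, 1.44 and 2.64 CPM, the secretoglobin SCGB1A1 at 45.0, 2.11 and 1.95 and the sulfotransferase CHST4 at 113, 2.33 and 36.8, so replicate 1 led each. SPP1, osteopontin, rose with each library left out, as no other secretory gene did, from 469, 262 and 568 to 2367, 1885 and 835 CPM (1.97 ± 0.39, adjusted p = 0.00533). KRT19, a simple epithelial keratin, went from 1207, 1809 and 1345 to 4581, 3582 and 2265 CPM (1.26 ± 0.30) and was not called without day 4 replicate 1. Among kidney lineage factors PAX8 and TFAP2A rose, by 0.86 ± 0.28 and 0.64 ± 0.17, and neither was called without day 4 replicate 1 or without day 0 replicate 2, and PAX8 also not without day 0 replicate 1 or 3.

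Matrix, integrin and mesenchymal lists had medians above the day 0 mean in replicate 2 and below that mean in replicates 1 and 3. For matrix glycoproteins, matrix proteases and integrins the replicate 1 medians, -0.05, -0.16 and -0.03, lay within the range of the day 0 libraries. Single members varied: of 116 such genes, 83 lay above all day 0 libraries in replicate 2 (44.2% of all genes did), 50 below them in replicate 1 (37.3%) and 68 below them in replicate 3 (30.5%). For 23 mesenchymal and contractile genes the medians were -0.44, 0.72 and -0.56, and for 20 collagens -0.28, 1.3 and -0.57. Across all tested genes, 620 (4.97%) lay above all day 0 libraries in replicate 2 and below all of them in replicates 1 and 3, and 34 of those 116 did so. The reverse pattern held for 408 genes (3.27%), 4 of them among the 116. The 116 passed a filter on low counts over all groups of the series. With only the groups compared, 12 collagens, not 20, and 22 matrix glycoproteins, not 27, passed it.

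The fold changes of several of these genes changed sign with 1 library. TGFBI, a matrix protein named for its induction by TGFb, measured 55.6, 2.84 and 3.1 CPM at day 0 and 0.325, 1583 and 0.229 CPM at day 4, against 9515, 7799 and 7495 CPM in TGFb-treated cells. Its log2 fold change was 4.68 ± 1.71 with all libraries (adjusted p = 0.0619) and -6.08 ± 1.29 without day 4 replicate 2 (adjusted p = 0.00674). COL1A1, the main chain of type I collagen, had no count in day 4 replicates 1 and 3 and 596 CPM in replicate 2, against 3.67, 0.0661 and 0.269 CPM at day 0. The smooth muscle gene TAGLN gave 9.91, 12.3 and 79.2 CPM at day 0 and then 1.46, 399 and 1.72 CPM at day 4. ACTA2, smooth muscle actin, gave 6.37, 7.54 and 22.1 CPM and then 0.690, 148 and 1.49 CPM. In each of these 4 genes replicate 2 was above and replicates 1 and 3 were below all day 0 libraries. COL1A1 was already near 0 in day 0 replicates 2 and 3, so its fall cannot be read from them. It was not called without day 4 replicate 2.

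Without day 4 replicate 2 falls outnumbered rises on these lists, while 5.1% of all tested genes fell and 9.47% rose. Among the 23 mesenchymal and contractile genes 12 fell and 1 rose, where all libraries gave 1 fall and 2 rises. TAGLN and ACTA2 fell by 4.38 ± 1.00 and 3.57 ± 0.77 in that fit, and PDPN, podoplanin, fell by 2.67 ± 0.40. MSC, a transcription repressor on none of the lists, had 177, 52.7 and 57.0 CPM at day 0 and 3.37 and 8.83 CPM in replicates 1 and 3, a change of -4.09 ± 0.58. Collagens gave 3 falls and 1 rise of 20, matrix glycoproteins 5 and 1 of 27, integrins 3 and 0 of 14. The integrin chain ITGB3 gave -1.31 ± 0.17, NID2 of the basement membrane -1.61 ± 0.30, and the fibrillar collagen COL5A2 -1.05 ± 0.23. For ITGB3 the values were 781, 548 and 625 CPM at day 0 and 231, 1174 and 296 CPM at day 4, with replicate 2 alone above day 0. ITGA3, an integrin chain that binds laminin, was lower in all 3 day 4 libraries and fell with all libraries (-0.68 ± 0.19) but was not called without day 4 replicate 1 or any one of the day 0 libraries. Without replicate 2 the coagulation starter F3, -2.52 ± 0.46, the collagenase MMP13, -4.24 ± 0.95, and the secreted protease PRSS23, -3.00 ± 0.52, fell as well. When both doubted libraries were left out, 8 mesenchymal genes fell and 2 rose, while 2.37% of all tested genes fell and 5.5% rose. Collagens then gave 2 falls and 1 rise, matrix glycoproteins 4 and 1, integrins 2 and 0, and matrix proteases, inhibitors and crosslinkers 4 and 5. The median log2 fold changes of collagens, glycoproteins and integrins were 0.07, 0.09 and -0.14, against -0.54, -0.24 and -0.33 without day 4 replicate 2 alone. These medians hold genes that passed the filter on low counts over all groups of the series. With only the groups compared and both doubted libraries out, 12 collagens and 21 glycoproteins passed, with medians of -0.33 and 0.17. The 14 integrins then had a median of -0.18.

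TGF-beta and BMP pathway genes had medians of 0.17, 0.54 and -0.30 in the 3 day 4 libraries. With all libraries 8 of 34 rose and none fell. When day 4 replicate 2 was left out, 4 rose and 7 fell. PMEPA1, a feedback inhibitor of the pathway, measured 392, 301 and 397 CPM at day 0 and 179, 757 and 141 CPM at day 4. INHBA, a subunit of the ligand activin, measured 277, 241 and 244 CPM and then 31.0, 407 and 57.3 CPM. In both genes replicates 1 and 3 were below all day 0 libraries, and the changes without replicate 2 were -1.18 ± 0.15 and -2.54 ± 0.53. SMAD4, the shared transducer, rose slightly in all 3 libraries, from 29.6, 25.1 and 30.7 to 49.3, 39.1 and 37.2 CPM (0.56 ± 0.12, adjusted p = 0.00831). CCN2, a target of both TGF-beta and YAP, stood at 108, 128 and 14.0 CPM against 10.3, 14.2 and 16.8, high in replicates 1 and 2. PTPN14, an inhibitor of YAP, rose by 1.07 ± 0.23 on a YAP and TEAD list with 7 rises and 1 fall among 26.

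A few matrix and mesenchymal genes rose with each library left out. LOXL4, a collagen crosslinker, went from 0.693, 1.62 and 2.83 to 22.3, 17.1 and 3.21 CPM (3.16 ± 0.53, adjusted p = 0.00304). COL8A2, a collagen of sheet-like networks, went from 1.04, 1.12 and 0.808 to 2.44, 3.81 and 2.29 CPM and MYH10, a non-muscle myosin, from 23.9, 17.2 and 22.8 to 65.5, 48.2 and 29.1. PDGFRA, a growth factor receptor, rose from 1.18, 0.926 and 1.89 to 29.2, 12.8 and 2.52 CPM (3.63 ± 0.78), with the highest value in replicate 1. The transcription factor SOX9 went from 25.0, 32.4 and 26.7 to 117, 56.3 and 39.6 CPM (1.34 ± 0.32) but was not called without day 4 replicate 1.

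Of 10 transcription factors of the epithelial to mesenchymal transition, SOX9, PRRX2 and SOX4 rose with all libraries. PRRX2 and SOX4 were not called without day 4 replicate 2. The other factors best known for it had overlapping groups. PRRX1 measured 7.07, 0.661 and 0.404 CPM at day 0 and 0.975, 3.25 and 0 CPM at day 4, so its highest value was in the day 0 library with MDCK-II transcripts. ZEB1 gave 5.82, 0.827 and 0.943 CPM and then 0.122, 1.48 and 0.459 CPM with the same library highest. SNAI1 gave 17.9, 19.1 and 21.9 CPM and then 38.3, 18.5 and 19.6 CPM, and SNAI2 41.6, 21.6 and 15.9 CPM and then 5.52, 53.7 and 9.52 CPM. With all libraries none of these 4 was called, the adjusted p-values lying between 0.131 for ZEB1 and 0.859 for SNAI2. Without day 4 replicate 2, ZEB1 and SNAI2 fell (-3.47 ± 1.15 and -1.88 ± 0.61), and without both doubted libraries neither was called. Vimentin (VIM), the mesenchymal intermediate filament, stood at 6220.0, 5386 and 4529 CPM at day 0 and 2833, 1913 and 4586 CPM at day 4, a log2 fold change of -0.79 ± 0.27 with an adjusted p of 0.049 and replicate 3 within day 0. With 1 library left out, VIM was called only without day 4 replicate 3. With all libraries it missed the edgeR threshold with no filter on low counts (adjusted p = 0.0665) and with a replicate block (0.0502).

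**Figure D3:**
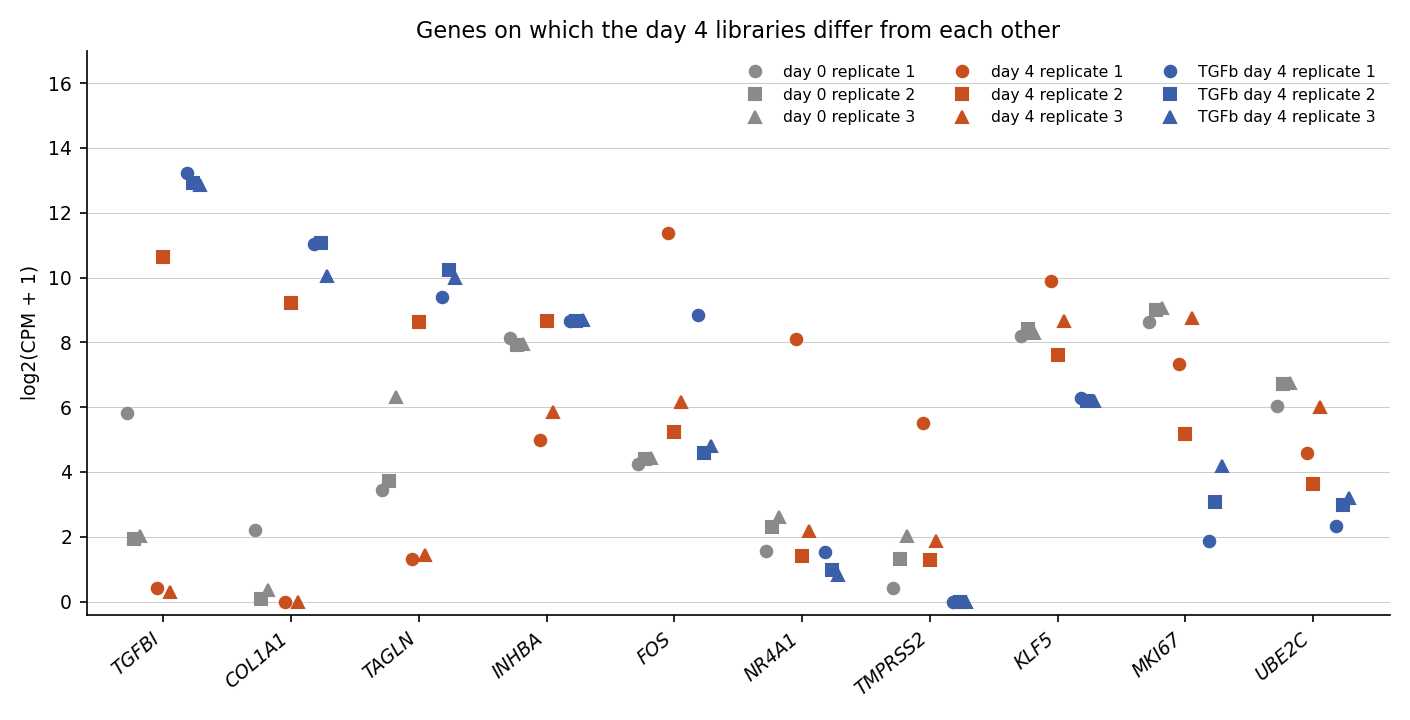
Log2(CPM + 1) of 10 genes in MDCK-NBL2 libraries at day 0 (grey), untreated day 4 (orange) and TGFb-treated day 4 (blue), with circle, square and triangle for replicates 1, 2 and 3. Day 4 replicate 2 lies above day 0, as the treated libraries do, for TGFBI, COL1A1, TAGLN and INHBA, replicate 1 stands above all others for FOS, NR4A1 and TMPRSS2, and replicate 3 stays within day 0 for MKI67.

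The remaining lists moved little or rested on single libraries. Of 31 hypoxia and glycolysis genes 4 rose and 1 fell. EGLN3, an oxygen-sensing hydroxylase, went from 10.1, 17 and 20.7 to 89.6, 44.1 and 19.4 CPM (1.70 ± 0.40), while the glycolytic enzyme PFKP fell from 552, 509.5 and 457 to 358, 393 and 298 CPM (-0.53 ± 0.14). EGLN3 was not called without day 4 replicate 1, nor PFKP without day 0 replicate 1 or 2. Of 33 lysosome and autophagy genes 4 rose and 2 fell. WIPI1, which acts in autophagosome formation, went from 1.25, 1.19 and 1.48 to 8.77, 24.5 and 1.84 CPM (3.24 ± 0.54), and the lysosomal sialidase NEU1 from 118, 116 and 133 to 64.8, 98.7 and 91.9 (-0.52 ± 0.13). Of 24 tubule transporters 1 rose, the taurine carrier SLC6A6, from 310.1, 293 and 315 to 689, 723 and 320.4 CPM, and 1 fell. Cytokines and chemokines gave 2 rises and 3 falls of 26, and CXCL8, a neutrophil attractant, stood at 7.27, 24.3 and 50.9 CPM at day 0 and 2.23, 12.8 and 1.38 CPM at day 4 without passing the test (adjusted p = 0.0728). Apical polarity genes gave 1 rise of 23. Matrix proteases, inhibitors and crosslinkers gave 6 rises and 1 fall of 32, and 4 and 5 without day 4 replicate 2. The summed level of 9 histone genes was 334 to 373 CPM at day 0 and 363, 225 and 370.5 CPM at day 4, lowest in replicate 2.

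**Figure D4:**
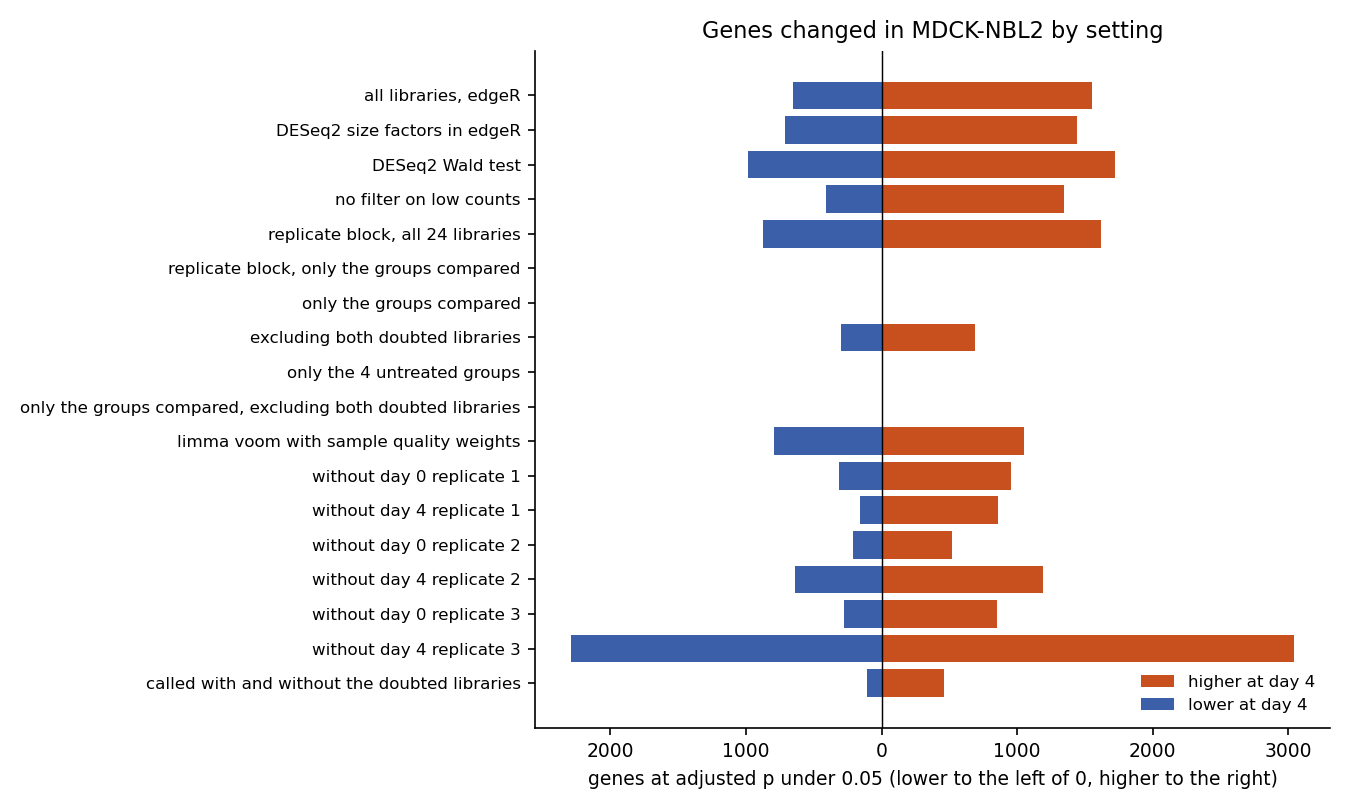
Number of genes with an adjusted p under 0.05 that were higher (orange, to the right) or lower (blue, to the left) in MDCK-NBL2 at day 4, under each setting named on the left. The total runs from 0 in the 4 settings that fitted fewer groups of libraries to 5324 without day 4 replicate 3.

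The same comparison in MDCK-II, which shares no library with this one, shows where MDCK-NBL2 differed. In MDCK-II 718 genes rose (5.76%) and 505 fell (4.05%), 9.81% of those tested. Sterol synthesis genes gave 21 rises of 28 there and 19 in MDCK-NBL2, ATF4 genes 23 rises and 16, and interferon genes 8 and 19. A test of the difference between the lines called 14 of 12466 genes (0.112%), 6 with the higher change in MDCK-NBL2 (0.0481%) and 8 with the lower (0.0642%). It called 70 genes without day 4 replicate 2 (0.557%), 31 of them higher (0.247%) and 39 lower (0.31%). With both doubted libraries out it called 24 (0.191%), 14 higher (0.112%) and 10 lower (0.0796%). Among the 14 genes called with all libraries DPP4 and LAMC1 were the only members of any list.

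Several differences were in genes that changed in MDCK-II and did not pass the test in MDCK-NBL2. FABP3, a fatty acid carrier, measured 38.7, 51.2 and 59.1 CPM at day 0 and 43.4, 23.1 and 40.8 CPM at day 4 in MDCK-NBL2, and 75.6, 99.5 and 99.5 CPM then 819.7, 558 and 449.8 CPM in MDCK-II. The difference of the log2 changes was -3.21 ± 0.43 (adjusted p = 0.0036). DPP4, an apical membrane peptidase, had overlapping groups in MDCK-NBL2 at 119.7, 152 and 175 CPM and then 189, 148 and 133 CPM and rose in MDCK-II from 3.80, 2.71 and 2.28 to 14.3, 14.5 and 13.7 CPM (-2.18 ± 0.30). KLHL3, an adaptor in the control of kidney salt transport, gave -1.65 ± 0.16 in MDCK-II and -0.30 ± 0.15 in MDCK-NBL2, a difference of 1.34 ± 0.22. PID1, a phosphotyrosine-binding protein, fell in MDCK-II from 50.3, 62.8 and 52.7 to 14.8, 8.64 and 13.4 CPM and stood at 5.54, 7.77 and 9.29 CPM and then 14.5, 5.99 and 10.7 CPM in MDCK-NBL2 (2.66 ± 0.44). MKNK2, a kinase of translation control, gave 1.20 ± 0.15 in MDCK-II against 0.06 ± 0.14. LAMC1, a laminin chain, gave -0.89 ± 0.16 in MDCK-II and 0.30 ± 0.16 in MDCK-NBL2, a difference of 1.19 ± 0.22.

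Other genes passed the test in MDCK-NBL2. ELMO1, which acts in cell migration and engulfment, fell from 9.91, 7.51 and 9.56 to 2.84, 4.95 and 2.18 CPM and gave 81.4, 81.4 and 86.3 and then 96.9, 124 and 133 CPM in MDCK-II, a difference of -1.86 ± 0.30 (adjusted p = 0.0165). CEACAM1, an adhesion molecule, fell from 242, 230.1 and 171 to 97.3, 131 and 139.7 CPM with a difference of -1.32 ± 0.25. NIPAL1, a magnesium transporter, rose from 47.0, 70.7 and 70.7 to 156, 125 and 127 CPM against 139, 174 and 97.5 CPM and then 90.2, 78.6 and 94.9 CPM in MDCK-II (1.76 ± 0.34). P3H2, a collagen prolyl hydroxylase, and STK11IP rose in MDCK-NBL2 and fell in MDCK-II, with differences of 2.06 ± 0.40 and 1.23 ± 0.21. The MDCK-NBL2 rise of P3H2 was called in 1 of the 6 fits with a library left out, without day 4 replicate 3, and that of STK11IP in 5, not without day 0 replicate 3. PPME1, a phosphatase methylesterase, fell in MDCK-NBL2 by 0.42 and gave 0.29 ± 0.10 in MDCK-II (-0.71 ± 0.13). Without both doubted libraries FABP3, DPP4, ELMO1, PID1, KLHL3 and STK11IP kept their call, and the other 6 named here had adjusted p-values from 0.0625 for LAMC1 to 0.0712 for P3H2, MKNK2 and NIPAL1.

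**Figure D5:**
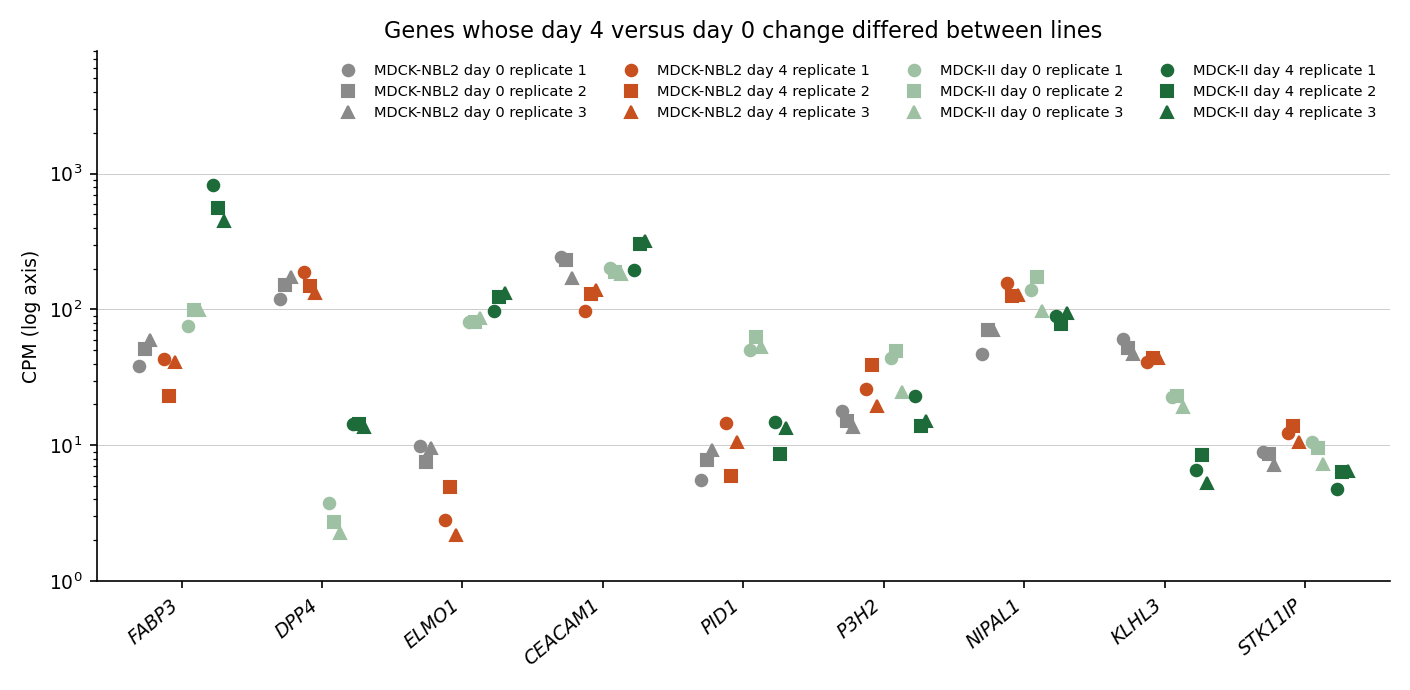
CPM on a log axis of 9 genes whose day 4 versus day 0 change differed between lines, in MDCK-NBL2 (grey day 0, orange day 4) and MDCK-II (light green day 0, dark green day 4); circle, square and triangle are replicates 1, 2 and 3. FABP3 and DPP4 are higher at day 4 in MDCK-II alone, and ELMO1 and CEACAM1 are lower at day 4 in MDCK-NBL2 alone.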

How the data were processed

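RNA-seq libraries of untreated MDCK-NBL2 cells at day 0 and day 4 were analysed with the other 18 libraries of the series. The authors deposited 1 table of whole-number counts per gene. FastQC, STAR 2.5.3a, RSEM 1.3.0 and the dog genome CanFam3.1 are named per the submitters' processing notes. Strand setting and rounding are not stated in the material used here. The table holds 32704 genes, of which 18660 have a symbol.

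All 24 libraries were fitted with 1 mean per group in edgeR 4.0.16 (R 4.3.3), after filtering (minimum count 10, minimum total count 15), which left 12466 genes. The test was glmQLFTest with TMM scaling, 16 residual degrees of freedom and a prior count of 0.125, with p-values adjusted by Benjamini-Hochberg over all tested genes. The common biological coefficient of variation was 21.9%. Standard errors are the absolute log2 fold change divided by the square root of F. CPM use TMM-scaled library sizes. The difference between lines was an interaction contrast. The scripts were tested on simulated data with gene means over all 24 libraries and their library sizes. That simulation gave each gene the same spread in every group, so it does not bear on the wider day 4 group.

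Alternatives were DESeq2 1.42.0, its size factors in edgeR, limma 3.58.1 with voom and sample quality weights, no filter, fits to fewer groups, a replicate block, and each library left out. The 36 lists hold 1064 genes, 977 found in the table (16 by an older symbol) and 805 tested, and 1 gene on 2 rows was left out. The members and lists were chosen with earlier results of these data known. Named genes are the 12 largest rises and falls with non-overlapping groups and at least 10 CPM, with all libraries and without both doubted ones, for each list up to 4 called members of smallest adjusted p, 9 marker genes, and the 6 largest differences between lines in each direction. Not all of these are printed, and the genes given by name alone were added after their values were seen. Doses of TGFb and coordinates are not used here. Results for some genes are not reported here.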

Additional observations from a re-analysis of the deposited data

Results flagged for a closer look

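In 12 genes with a symbol the change from day 0 to day 4 differed between MDCK-NBL2 and MDCK-II, by edgeR's quasi-likelihood test of the difference with Benjamini-Hochberg adjustment. Values are the MDCK-NBL2 log2 change minus the MDCK-II log2 change. It was positive for PID1 (2.66, adjusted p = 0.0191), P3H2 (2.06, 0.0478), NIPAL1 (1.76, 0.0495), KLHL3 (1.34, 0.0165), STK11IP (1.23, 0.0191) and LAMC1 (1.19, 0.0399). It was negative for FABP3 (-3.21, 0.0036), DPP4 (-2.18, 0.0036), ELMO1 (-1.86, 0.0165), CEACAM1 (-1.32, 0.0399), MKNK2 (-1.14, 0.0379) and PPME1 (-0.71, 0.0399). Without both doubted MDCK-NBL2 libraries P3H2, NIPAL1, LAMC1, CEACAM1, MKNK2 and PPME1 were no longer called.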

How the results depend on the processing

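The number of genes called in MDCK-NBL2 was 2206 with all libraries. It was 988 without both doubted libraries, with 566 genes called alike in all 4 fits, and 0 when the fit held only the groups compared, these groups without the doubted libraries, or the 4 untreated groups. At an unadjusted p under 0.05 those 3 edgeR fits held 1614, 1065 and 2915 genes. Leaving out 1 library gave 729 to 5324. The MDCK-II count of 1223 became 213 with the 4 untreated groups, 4255 with limma voom and 509 to 1351 with 1 library left out. The 14 genes that differed between lines became 174 with DESeq2, 297 with limma voom, 24 without both doubted libraries, 0 with only the groups compared (794 at an unadjusted p under 0.05) and 2 to 849 with 1 library left out. DESeq2 size factors in edgeR and no filter on low counts moved none of these 3 counts by over 1.5 times.

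The replicate numbers gave no clear pairing of the libraries, but groups of 3 that include the doubted libraries cannot exclude it. Deviations of same-numbered MDCK-NBL2 libraries correlated by -0.09, -0.30 and 0.10, and only replicate 3 matched its own number best. With the replicate block in all libraries, 2493 genes were called in MDCK-NBL2 and 30 differed between lines. With the block in only the groups compared, the counts were 0 in MDCK-NBL2 (1216 at an unadjusted p under 0.05), 496 in MDCK-II and 0 for the difference (739).

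With 1 library left out in turn, the log2 fold change took both signs for 20 of the 135 genes compared across settings. Of all 135, 6 changed sign between the edgeR fit to all libraries and an alternative where 1 of both called the gene. The log2 fold change without day 4 replicate 2 was -6.08 for TGFBI, -7.15 for COL1A1 (not called in that fit), -4.38 for TAGLN and -3.57 for ACTA2. Without both doubted libraries it was -3.26, -3.73, -4.83 and -3.87 for the same genes. With limma voom COL1A1 gave -0.15. Without day 4 replicate 1 EGR1 gave -0.19 and NR4A1 -0.52. With 1 library left out, the fold changes of these genes ranged up to 7.48 for TGFBI, 10.72 for COL1A1, 3.59 for TAGLN, 2.86 for ACTA2, 4.57 for EGR1 and 5.29 for NR4A1. The cause was not tested. Of the 135 genes, 104 lost a call in only the groups compared, 31 without day 0 replicate 2, 32 without day 4 replicate 1, 22 without day 0 replicate 1, 22 without day 0 replicate 3, 15 without day 4 replicate 2 and 2 without day 4 replicate 3. Day 0 replicate 3 and day 4 replicate 3 had the lowest depth of their groups, which limits the scarce genes most.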
